A study of Mus musculus with 12 samples.

Results

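The genes of B cells, plasma cells and immunoglobulin chains were followed in mouse mammary tumors labelled ShcA-null, each measured against a pool of NIC tumors. The members were every gene probe whose name in the scanner files begins with Igh, Igk or Igl (without Ighmbp2), together with 19 named genes of B cells and plasma cells found by current or older symbol. They came to 39 genes with 71 probes, of 27670 genes with 41174 probes on the array. Of these, 20 were immunoglobulin genes with 45 probes, 7 plasma cell genes with 8 probes and 12 B cell genes with 18 probes. A gene with several probes was represented by the brightest one, and 33 of the 39 genes passed the filter on dim probes and were tested.

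B cells carry an antibody on their surface as part of the B cell receptor, in which the immunoglobulin is coupled to the signalling chains encoded by Cd79a and Cd79b. On activation some become plasma cells, which lose much of the B cell programme and put most of their synthesis into secreted antibody. An antibody has paired heavy and light chains. The heavy chain's constant region sets its class, mu for IgM, gamma for IgG and alpha for IgA, and the light chain is kappa or lambda. In the mammary gland, plasma cells that make IgA are known for supplying the antibody of milk, where the J chain links IgA units and the polymeric immunoglobulin receptor carries them through the epithelium.

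There were 8 tumors on 12 two-colour Agilent arrays, on which amplified RNA of 1 tumor and of the pool were hybridised together. All 8 tumors form 1 group, labelled ShcA-null; ShcA, the product of Shc1, is an adaptor that links receptor tyrosine kinases to Ras signalling. The control is the pooled NIC tumor RNA, and NIC stands for a transgene that makes an activated Neu (ErbB2) receptor and Cre recombinase from 1 transcript in mammary epithelium. Ages, strain, the number of tumors in the pool and the deleted part of Shc1 are not given in the sources used here, nor whether the numbered tumors came from separate animals. Values are log2 ratios of tumor over pool, so that 1 is a 2-fold higher level in the tumor. Each ratio was tested against 0 with limma, with Benjamini-Hochberg adjustment over 20288 genes, and a gene with an adjusted p under 0.05 is called higher or lower. Because the pool is 1 control sample, the spread among control tumors does not enter the test, and the p-values measure only the spread between these 8 tumor samples, which may in part be technical. In whole tumors, more cells of a type and more RNA per cell cannot be told apart.

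Libraries that stood apart bear on these values. The first array of every tumor carried tumor RNA in Cy5, and tumors 1 to 4 had a second array with the dyes swapped. Over all kept genes the swapped array labelled tumor 1 correlated best with the first array of its own tumor (r = 0.378), but the one labelled tumor 2 matched tumor 3 (0.824, against 0.147 with its own), the one labelled tumor 3 matched tumor 4 (0.344 against 0.135) and the one labelled tumor 4 matched tumor 8 (0.669 against 0.258). These are correlations across genes, which are not independent replicates. Arrays were averaged by label. If the best matches are right, the values of tumors 2, 3 and 4 each mix RNA of different tumors. The 8 values would then not be independent, which the SDs and limma p-values do not take into account. Values from the first arrays alone are given where they end the call of a member. Values from a rematched fit, which has a term for the dye and puts each swapped array with its best match, are given where they end the call of any named gene. The single Shc1 probe (A_52_P384250) stood at -2.05 on the first array of tumor 3 and at -2.22 on the swapped array labelled tumor 2, and between -0.03 and 0.74 on the other 10 arrays. By this 1 probe, Shc1 RNA was not far below the pool in most tumors. The label cannot be checked this way, because a probe outside the deleted part would check nothing. Tumor 7 gave the highest ratio of the 8 tumors for 22 of the 29 tested members measured in all 8 (75.9%), against 13.4% of all genes tested, so the class counts, and results that it moves most, are given with and without it.

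The immunoglobulin probes are 60 bases long and their names are those of the array's design. The probe that represents Igh-VJ558 lies at chr12:110781031-110781090 of the mouse build mm7, which the array file uses, and that of Igh-4 at chr12:110850541-110850600. In the RefSeq assembly GRCm38.p6 the order along chromosome 12 is Igha, Ighg1, Ighm, with Igha and Ighg1 70.3 kb apart and Igha and Ighm 162.6 kb apart. The probes of Igh-VJ558, Igh-4 and Igh-6 fall in the same order with spacings of 69.4 and 159.0 kb in mm7, so that Igh-VJ558 is read here at the alpha, Igh-4 at the gamma1 and Igh-6 at the mu constant position. Below are a probe at each of these positions, in lower case because no part of them is singled out, and the lambda probe (Igl-V1, chr16:18634987-18635046). Igh-6 is shown by its second probe (A_51_P485421, chr12:110942769-110942828).

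Igh-VJ558, alpha position: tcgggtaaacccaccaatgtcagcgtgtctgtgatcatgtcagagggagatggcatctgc
Igh-4, gamma1 position: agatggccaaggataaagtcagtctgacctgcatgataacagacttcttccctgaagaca
Igh-6, mu position: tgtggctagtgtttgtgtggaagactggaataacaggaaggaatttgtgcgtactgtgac
Igl-V1, lambda: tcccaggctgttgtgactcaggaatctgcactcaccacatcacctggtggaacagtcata

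Kappa variable segments are a large family of similar sequences on chromosome 6. The next 4 probes are shown because they hold the same run of 19 bases, in capitals, so that their values may count some of the same transcripts. They lie at chr6:68247242-68247301 (Igk-V1), chr6:67701639-67701698 (Igkv1-133), chr6:67736405-67736464 (Igkv1-132) and chr6:68128606-68128665 (Igkv2-116) of mm7.

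Igk-V1: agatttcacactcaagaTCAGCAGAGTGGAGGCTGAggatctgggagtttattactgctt
Igkv1-133: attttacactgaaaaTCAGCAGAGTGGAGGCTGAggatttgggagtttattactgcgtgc
Igkv1-132: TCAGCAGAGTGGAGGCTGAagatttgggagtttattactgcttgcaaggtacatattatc
Igkv2-116: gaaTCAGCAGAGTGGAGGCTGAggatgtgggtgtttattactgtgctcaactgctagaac

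All 8 printed probes can be read without a stop codon in at least 1 frame. The brightest Igh-6 probe, which gave the main values of Igh-6, is not among them and has no such frame. Among the 153 pairs of the 18 probes that represent tested immunoglobulin genes, 6 pairs shared a run of at least 15 bases, the longest of 25, and all 6 were pairs of these 4 kappa probes. The immunoglobulin genes are therefore not independent readings, also where no long run is shared, because heavy and light chains are made by the same cells.

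Antibody genes stood above the pool almost throughout, while most B cell genes were not called. Over the 8 tumors, 20 of the 33 tested members were called higher, 0 lower and 13 were not called by limma. Over all genes tested, 6.63% were called higher and 10.6% lower. At an unadjusted p under 0.05, 25 members were higher and 0 lower, beside 14.3% of all genes higher. Past a mean of at least 2-fold there were 16 called members, against 1.9% of all genes. Of the 29 members with a value in all 8 tumors, 19 lay above the pool in every tumor, 13 of them immunoglobulin genes, against 4.86% of all genes. The 4.86% is taken over all 20288 genes tested, of which 18748 had a value in all 8 tumors. By class, 16 of 18 tested immunoglobulin genes were called higher with a median of 2.04, 3 of 7 plasma cell genes with a median of 0.64, and 1 of 8 B cell genes with a median of 0.57, beside a median of -0.02 over all genes. With tumor 7 left out, the calls were 16, 2 and 3 and the medians 1.74, 0.52 and 0.26, beside 4.37% of all genes called higher, 8.35% lower and 1.47% higher past 2-fold. Whichever tumor was left out, 14 of the 20 members kept their call.

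**Figure D1:**
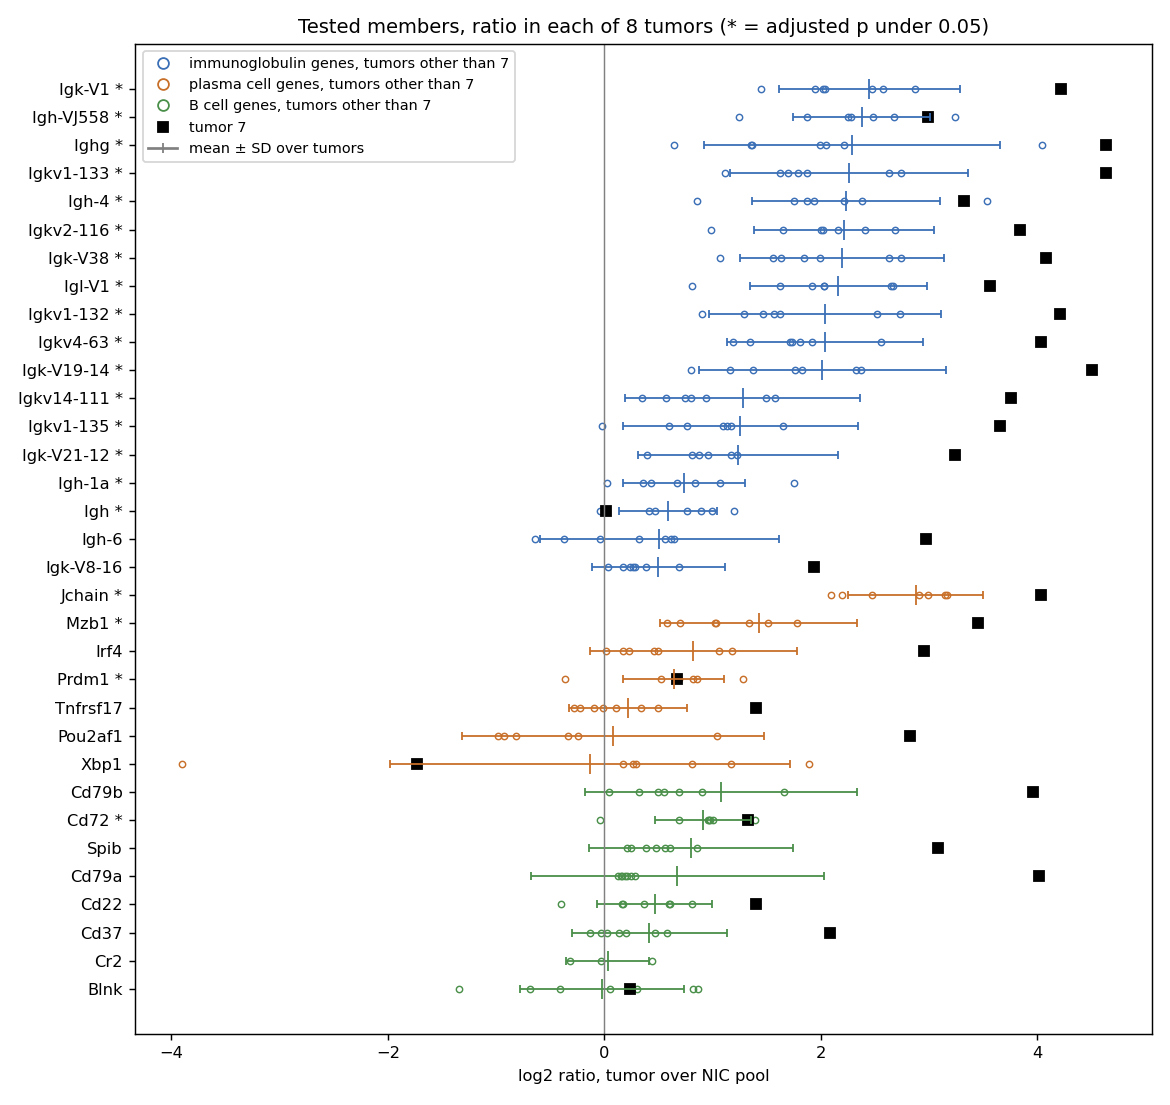
Log2 ratio of tumor over NIC pool for the 33 tested members (rows, by class and then by mean). Open circles are single tumors, black squares tumor 7, and vertical ticks with bars the mean ± SD over tumors; an asterisk marks a limma adjusted p under 0.05. The antibody genes from Igk-V1 to Igk-V19-14 have every tumor above 0, whereas for Cd79a tumor 7 stands at 4.02 and the other 7 tumors between 0.12 and 0.28.

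Among heavy chain genes, those at the alpha and gamma constant positions were higher and mu was not called. At the alpha position, the constant region of IgA, Igh-VJ558 ranged from 1.24 in tumor 6 through a median of 2.38 to 3.24 in tumor 8. All 8 tumors were above the pool, by a mean of 2.38 ± 0.63 (SD, n = 8), or 5.2-fold, with a limma adjusted p of 0.000348. The other 2 probes of the same accession (BC004786) at this position gave 2.56 and 2.26, both called. Tumor 7 (2.99) was not its highest tumor.

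Igh-4, at the position of gamma1, the constant region of IgG1, ranged from 0.85 in tumor 1 through a median of 2.07 to 3.54 in tumor 8, all above the pool. Its mean was 2.23 ± 0.87 (SD, n = 8), or 4.7-fold, with a limma adjusted p of 0.00156. The size depends on the probe, since its other 2 probes, of nearly the same signal, gave 2.61 and 1.30, both called. Ighg, another gamma gene name whose probe (A_52_P74106) is on unplaced chromosome 12 sequence, ran from 0.65 to 4.64 with a median of 2.02 (2.29 ± 1.37, SD, n = 8; limma adjusted p = 0.0077). Tumors 6 and 7 were its highest, at 4.04 and 4.64, and the other 6 lay between 0.65 and 2.21. A second probe of the same accession (A_51_P117903) ordered the tumors differently, with tumors 6 and 7 lowest at -0.25 and 0.08.

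Igh-6 at the mu position, the constant region of IgM, stood in tumors 1 to 8 at -0.04, 0.61, 0.56, -0.37, 0.32, 0.64, 2.98 and -0.64. Tumors 1, 4 and 8 were below the pool and tumor 7 stood far above the others. The mean of 0.51 ± 1.10 (SD, n = 8) was not called by limma (adjusted p = 0.326), and was 0.16 without tumor 7. A second mu probe gave 0.80 and was not called either. Within each of the 8 tumors the ratio at the alpha position exceeded that at mu, by 1.87 ± 1.18 (SD, n = 8), the least in tumor 7 (0.01), and against the second mu probe in 7 of 8, by 1.58 ± 0.86. The gamma1 ratio also exceeded the mu ratio in 8 of 8 tumors, by 1.72 ± 1.15. The difference between alpha and gamma1 was 0.15 ± 0.64, above 0 in 5 of 8. These pairs were chosen after their values were seen and are given as a description.

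Probes in variable segments of the heavy chain locus divided the tumors in another way. Of 8 kept probes there, 7 were called higher in a separate limma fit over 30767 probes, with means from 0.44 to 1.88. Among them, A_52_P686392 and A_52_P151887 overlap in most of their bases, so the 8 are not independent readings. The share of all probes called in that fit is not given here; over genes, in the main fit, 6.63% were called higher. In tumors 1, 2, 3, 4, 5 and 8 their median ratio lay between 1.34 and 2.00. In tumor 6 it was -0.05, with single probes between -0.22 and 0.63, and in tumor 7 it was 0.27, with probes between -0.15 and 1.22. In the same tumors 6 and 7 the 3 gamma1 probes had medians of 2.21 and 3.32 and the 3 alpha probes 1.81 and 2.99. Tumors 6 and 7 were thus low at variable segments and above the pool at the alpha and gamma1 positions, while tumors 5 and 8, which lay on the same slide, were above the pool at all 3. The mu position went otherwise, with probes at -1.13 and 0.64 in tumor 6 and at 3.14 and 2.98 in tumor 7. Of the 8 variable probes, 2 were well above background in tumor 6 and 5 in tumor 7, against 7 in tumor 5 and 8 in tumor 8. The pool was well above background for 4 of the 8 on the array of tumor 5, and for 3 on those of tumors 6, 7 and 8. This split was noticed after the values were seen and was not tested.

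**Figure D2:**
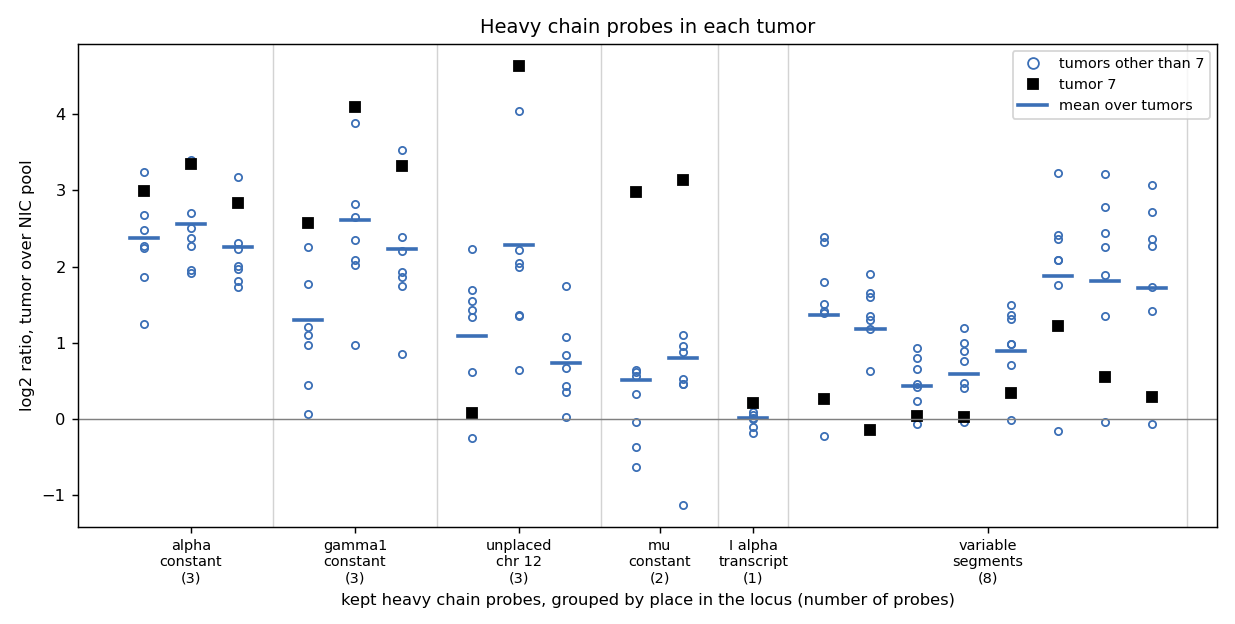
Log2 ratio of tumor over NIC pool for the 20 kept heavy chain probes, each probe a column, grouped by place in the locus. Open circles are single tumors, black squares tumor 7, and bars the mean over tumors. Tumor 7 stands near 3 at both mu probes and between -0.15 and 1.22 at the 8 variable segment probes.

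The remaining heavy chain names were nearer the pool in the main values. Igh, a variable segment by position, ranged from -0.04 to 1.20 with a median of 0.62 (0.59 ± 0.45, SD, n = 8; limma adjusted p = 0.0298), with tumors 6 and 7 at -0.04 and 0.02. For Igh the pool was well above background on 1 array, and tumors 6 and 7 were not, so those 2 values compare signals near background. With the Feature Extraction log ratio the mean of Igh was 1.72. Igh-1a, a gamma gene name on unplaced sequence, ranged from 0.02 to 1.75 over 7 tumors with a median of 0.67 (0.73 ± 0.56, SD, n = 7; limma adjusted p = 0.0359). Its tumor 7 value was left out for an outlier flag. Neither call held in the rematched limma fit (adjusted p = 0.169 for Igh and 0.211 for Igh-1a), and limma called neither when tumor 2, 3, 4, 5 or 8 was left out (adjusted p from 0.0538 to 0.0895). Igh-1a was not called over first arrays alone (limma adjusted p = 0.0718), and neither was called with median centring (limma adjusted p = 0.0843 for Igh and 0.0517 for Igh-1a). The probe of an I alpha transcript (A_51_P270661), a germline transcript that starts upstream of the alpha constant region, stayed at 0.01 ± 0.13 (SD, n = 7).

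Light chain genes followed, and nearly all were higher. Of 11 tested kappa genes 10 were called higher, and 9 were above the pool in every tumor. Igk-V1 ranged from 1.45 in tumor 1 through a median of 2.25 to 4.22 in tumor 7. Its mean was 2.45 ± 0.84 (SD, n = 8), or 5.46-fold, with a limma adjusted p of 0.00094, and 2.20 without tumor 7. Even its lowest tumor was more than 2-fold above the pool.

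The other strongly raised kappa segments were alike in size in the main values. Igkv1-133 had a mean of 2.26 ± 1.10, Igkv2-116 of 2.22 ± 0.83 and Igk-V38 of 2.19 ± 0.94 (SD, n = 8). Igkv1-132 stood at 2.04 ± 1.07, Igkv4-63 at 2.04 ± 0.90 and Igk-V19-14 at 2.01 ± 1.14 (SD, n = 8), and limma adjusted p-values for these 6 ran from 0.00134 to 0.00644. In each of the 6, tumor 7 was the highest, between 3.84 and 4.64. The lowest tumor of each lay between 0.80 and 1.19. The pool was well above background on all 12 arrays for Igkv2-116, but on 4 to 7 arrays for the others. Their sizes depend on the source of the ratio. With the Feature Extraction log ratio Igk-V19-14 stood at 3.98, Igk-V38 at 3.85 and Igkv2-116 at 2.88.

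The next 3 kappa segments were higher by less: Igkv14-111 (1.28 ± 1.09, n = 8), Igkv1-135 (1.26 ± 1.09, n = 8) and Igk-V21-12 (1.24 ± 0.92, SD, n = 7), with limma adjusted p-values of 0.0301, 0.0322 and 0.0265. Their highest values were in tumor 7, from 3.24 to 3.76. Igkv1-135 stood at -0.02 in tumor 6, where Igk-V1 stood at 2.57. Igkv1-135 was not well above background in tumor 6, and the pool was for it on 4 of 12 arrays only. The 2 values are therefore not comparable in size. In the rematched fit Igkv1-135 and Igk-V21-12 were no longer called by limma (adjusted p = 0.0803 and 0.0528). Leaving out tumor 4 or 8 ended the limma call of all 3 (adjusted p from 0.0509 to 0.0772), leaving out tumor 2 that of Igkv14-111 and Igkv1-135 (0.0528 and 0.0516), and leaving out tumor 3 or 5 that of Igkv1-135 and Igk-V21-12 (from 0.0524 to 0.0636). Igk-V8-16 was not called (0.50 ± 0.61, SD, n = 8; limma adjusted p = 0.113), though all 8 tumors lay above the pool, and its mean was 0.29 without tumor 7. The pool was at no time well above background for it, and the tumor RNA was on 4 of 12 arrays, in tumors 2, 3, 7 and 8. Taken against the lowest signal well above background, the mean tumor level was 1.29-fold higher. That mean includes tumors near background, so it is not a lower bound. Igkv9-123, a kappa segment, was too dim to be tested and was well above background in tumors 2 and 7 only.

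For lambda, Igl-V1 ranged from 0.81 in tumor 1 through a median of 2.03 to 3.56 in tumor 7, all above the pool. The mean was 2.16 ± 0.82 (SD, n = 8), or 4.47-fold (limma adjusted p = 0.0014). All 8 of its kept probes were called, at means from 1.11 to 2.16. Igll1, the surrogate light chain of B cell precursors, was well above background on none of the 12 arrays in either RNA and was not tested. Across the locus types, 16 of 20 kept heavy chain probes, 11 of 13 kappa probes and 8 of 8 lambda probes were called higher. These counts are from the fit over probes, for which the share of all probes called is not given here.

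Among plasma cell genes, those of antibody assembly were the ones raised most. Jchain, which links IgA and IgM units, stood in tumors 1 to 8 at 2.09, 3.16, 3.15, 2.47, 2.20, 2.90, 4.03 and 2.99. No tumor was less than 4-fold above the pool. Its mean of 2.87 ± 0.63 (SD, n = 8), or 7.33-fold, was the highest of the members, with a limma adjusted p of 0.000149, and a second probe gave 3.32. Mzb1, an endoplasmic reticulum co-chaperone of antibody assembly, stood at 0.58, 1.03, 1.33, 1.03, 0.70, 1.78, 3.45 and 1.51. All 8 were above the pool, with tumor 7 far above the rest (1.43 ± 0.91, SD, n = 8; limma adjusted p = 0.0108; 1.14 without tumor 7). The Jchain ratio exceeded that of Mzb1 in every tumor, by 1.45 ± 0.46 (SD, n = 8), a pair chosen after its values were seen.

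Of the transcription factors of plasma cells and their coactivator, Prdm1 alone was called. Prdm1, which encodes Blimp-1, the repressor that shuts down the B cell programme, ranged from -0.36 in tumor 5 through a median of 0.68 to 1.28 in tumor 6. It was above the pool in 7 of 8 tumors (0.64 ± 0.47, SD, n = 8; limma adjusted p = 0.0237). The call did not hold over first arrays alone (0.50, limma adjusted p = 0.0691) or without tumor 2, 3, 4, 7 or 8 (limma adjusted p from 0.0504 to 0.0613). Irf4, a factor needed for plasma cells, was above the pool in 8 of 8 tumors but was not called (0.82 ± 0.96, SD, n = 8; limma adjusted p = 0.0882), with tumor 7 at 2.96, the others from 0.02 to 1.18 and a mean of 0.52 without tumor 7.

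Xbp1, the unfolded protein response factor that expands the secretory apparatus and is also abundant in secretory epithelium, varied most. It stood in tumors 1 to 8 at 0.26, 0.29, 0.17, 0.81, 1.17, -3.90, -1.73 and 1.89, so that tumors 6 and 7 were low and the other 6 above the pool. The mean was -0.13 ± 1.85 (SD, n = 8; limma adjusted p = 0.89). Pou2af1, the octamer coactivator of B cells, lay below the pool in 5 of 7 tumors and above it in tumors 6 (1.04) and 7 (2.82), with a mean of 0.08 ± 1.39 (SD, n = 7; limma adjusted p = 0.917). Over tumors 1 to 4 alone, first and swapped arrays averaged by label, it was called lower (-0.77, limma adjusted p = 0.0252). Tnfrsf17, the receptor BCMA of long-lived plasma cells, was not called (0.22 ± 0.55, SD, n = 8; limma adjusted p = 0.427), with tumor 7 at 1.40, the others from -0.28 to 0.49 and a mean of 0.046 without tumor 7.

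Genes of the B cell surface and its receptor were mostly near the pool outside tumor 7. Cd72, an inhibitory co-receptor, was the only B cell gene called over all 8 tumors, while 3 were called without tumor 7. Cd72 ranged from -0.04 in tumor 6 through a median of 0.97 to 1.39 in tumor 8, and was above the pool in 7 of 8 tumors. Its mean was 0.91 ± 0.44 (SD, n = 8), or 1.88-fold (limma adjusted p = 0.00533), and a second probe gave 0.75 and was called too.

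The signalling chains of the receptor separated tumor 7 from the rest. Cd79b stood in tumors 1 to 8 at 0.04, 0.69, 0.90, 0.55, 0.32, 1.66, 3.96 and 0.49. Cd79a stood at 0.28, 0.16, 0.15, 0.21, 0.24, 0.12, 4.02 and 0.19. Neither was called by limma (Cd79b 1.08 ± 1.26, adjusted p = 0.0859; Cd79a 0.67 ± 1.35, adjusted p = 0.286; SD, n = 8). Without tumor 7, Cd79b was called (0.66, limma adjusted p = 0.047), and Cd79a was at 0.19. For Cd79a the pool was well above background on 1 array, that of tumor 7, and tumors 5, 6 and 8 were not, so its values outside tumor 7 have no order. The ratios of Jchain and Igk-V1 exceeded that of Cd79b in 8 of 8 tumors, by 1.80 ± 0.80 and 1.37 ± 0.61 (SD, n = 8), the least in tumor 7 (0.08 and 0.27). These 2 pairs too were chosen after their values were seen.

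Spib, an Ets factor of B cells and plasmacytoid dendritic cells, had a mean of 0.80 ± 0.94 (SD, n = 8, limma adjusted p = 0.091). Tumor 7 stood at 3.08 and the others from 0.21 to 0.86. Spib was well above background in tumors 1, 2, 3, 4, 5 and 7, and the pool on 5 of 12 arrays. Without tumor 7 Spib was called (0.48, limma adjusted p = 0.0237). Cd22, an inhibitory lectin of B cells, was not called (0.47 ± 0.53, limma adjusted p = 0.098), nor was the tetraspanin gene Cd37 (0.42 ± 0.71, limma adjusted p = 0.233; SD, n = 8 for each). Both were highest in tumor 7, at 1.40 and 2.08, and Cd37 was at 0.18 without it. Without tumor 6, where it stood at -0.40, Cd22 was called (0.59, limma adjusted p = 0.0272). Blnk, the linker of the B cell receptor pathway, ran from -1.35 in tumor 6 to 0.86 in tumor 2, with a mean of -0.02 ± 0.76 (SD, n = 8; limma adjusted p = 0.957). Cr2, the complement receptor CD21, was measured by its brightest probe in 3 tumors only, because outlier flags covered that spot on 9 of 12 arrays. Its mean there was 0.03 ± 0.38 (SD, n = 3; limma adjusted p = 0.941), whereas with flagged spots kept it was called higher (0.96, limma adjusted p = 0.0217). A second probe (A_51_P208525), too dim to be tested, stood at 3.60 in tumor 7 and from -0.17 to 0.11 in the others.

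The other 4 B cell genes were too dim for the test. Ms4a1 (CD20) stood at 4.68 in tumor 7 and from -0.02 to 0.36 in the others. Fcer2a (CD23) stood at 3.99 in tumor 7 and from -0.09 to 0.12 in the others. Pax5, the factor that maintains B cell identity, stood at 3.80 in tumor 7 and from -0.19 to 0.16 in the 6 others with a value. All 3 were well above background in tumor 7. On that array the pool was well above background too for Ms4a1 and Fcer2a, and on no other array, but not for Pax5, so the Pax5 value is a ratio to a pool signal not well above background. Blk, a kinase of the receptor pathway, lay between 0.03 and 0.20 in all 8 tumors and was well above background on 1 array, not of tumor 7.

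By tumor, the 3 classes ran partly together. The immunoglobulin median was 0.83, 1.64, 1.81, 1.5, 1.36, 2.21, 3.76 and 2.18 in tumors 1 to 8. The plasma cell median was 0.26, 0.86, 0.82, 0.69, 0.43, 1.04, 2.82 and 0.65. The B cell median was 0.20, 0.61, 0.69, 0.33, 0.24, -0.03, 2.08 and 0.49. Tumor 7 was highest in each member class and tumor 6 lowest for B cell members, both also over first arrays alone. The order of the other tumors depends on the swapped arrays: the lowest immunoglobulin median was in tumor 1 as averaged by label (0.83) and in tumor 2 over first arrays (0.88, against 1.30 in tumor 1).

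Markers of other cells moved with some of these values. In tumor 7 the median of 13 tested T cell markers was 3.01, against 0.07 to 0.58 in the others, and that of 9 lymphoid tissue markers 2.79, against 0.22 to 1.78. Of the 13 T cell markers, 1 was called higher (Lck, a kinase of the T cell receptor, 1.51 ± 0.92, SD, n = 8) and 1 lower (Cd3e, with values in 4 tumors; limma adjusted p = 0.431 in the rematched fit). Without tumor 7, 4 T cell markers and 7 lymphoid tissue markers were called higher. Of the 9 lymphoid tissue markers, 5 were called higher, led by Glycam1 (2.87), a mucin of lymph node vessels and of milk, Cxcl13 (2.35), which draws B cells into follicles, and Ccl19 (1.42). The median of 10 macrophage markers was 0.03 in tumor 7, inside the range of the others (-0.47 to 1.09), and 1 of 10 was called higher. The 10 mammary epithelial markers had a median of 0.26 in tumor 7, also inside the range of the others. Milk protein genes were called higher in 5 of 6, and their median was lowest in tumor 7, at 1.45 against 2.40 to 4.44. The part of other cells or of tissue around the tumor in the values of tumor 7 was not tested.

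**Figure D3:**
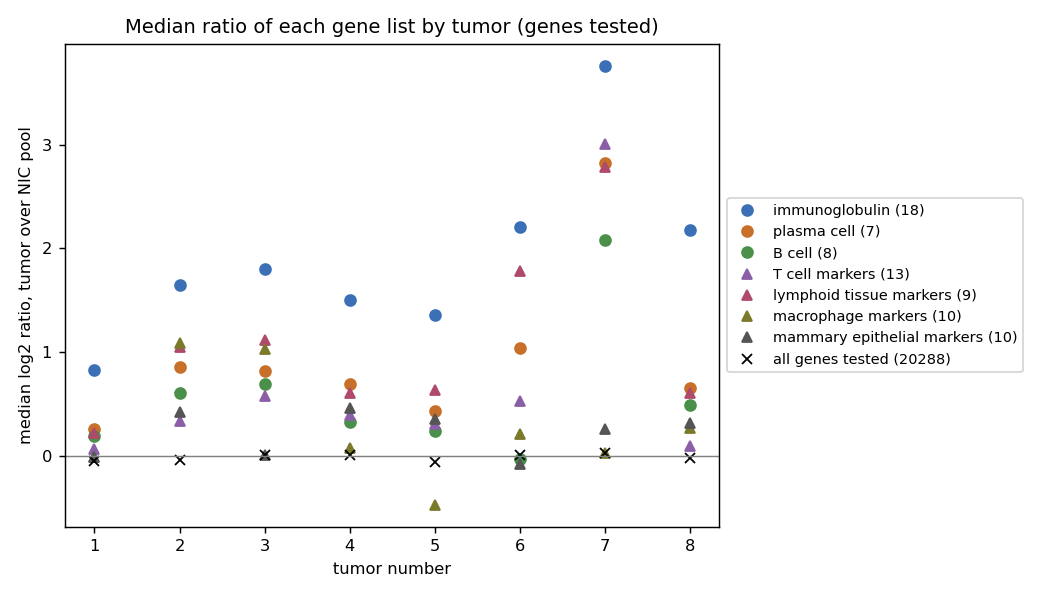
Median log2 ratio of tumor over NIC pool in each tumor (horizontal axis) for the 3 member classes (circles), 4 marker lists of other cells (triangles) and all genes tested (crosses); numbers of genes tested are in the key. The immunoglobulin median is above that of the plasma cell and B cell genes in every tumor, and in tumor 7 the T cell and lymphoid tissue medians rise to 3.01 and 2.79.

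Further genes of the B lineage were read from lists that held no member. Of 21 tested genes of B cell receptor signalling, Cd81, a tetraspanin gene, was called higher (0.80 ± 0.69, SD, n = 8) and 20 were not called, with a list median of 0.20. The Cd81 call was lost in the rematched limma fit (adjusted p = 0.858) and without tumor 7 (0.0827). Of 21 tested B cell and germinal centre genes, 3 were called higher, 1 lower and 17 not. Cd24a, which mammary epithelium also carries, stood at 1.22 ± 0.44, the nuclease gene Dnase1l3 at 1.20 ± 0.80 and Cd40, the receptor for T cell help, at 0.62 ± 0.55 (SD, n = 8). Bcl6, the master regulator of the germinal centre, fell by 1.18 ± 0.45 (SD, n = 8; limma adjusted p = 0.00218). With median centring Bcl6 was not called (-0.72, limma adjusted p = 0.0973). The Cd40 call was not kept without tumor 7 (limma adjusted p = 0.0517) or in the rematched fit (limma adjusted p = 0.12).

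Of 19 other plasma cell genes tested, 3 were called higher and 16 not called: Fkbp11 (0.65 ± 0.51), a folding enzyme of secretory cells, Eaf2 (0.55 ± 0.31), an elongation factor partner, and Sec11c (0.47 ± 0.21), a signal peptidase subunit (SD, n = 8). The median of the 19 genes was 0.30 in tumor 7, inside the range of the other tumors (0.07 to 0.35). For the lists of B cell receptor signalling and of B cell and germinal centre genes, tumor 7 had the highest median, at 1.075 and 0.999. Of 18 genes of endoplasmic reticulum load, the chaperone gene Calr (0.63 ± 0.48) and the isomerase gene Pdia6 (0.40 ± 0.28) were called higher. Herpud1, of the degradation pathway, fell by 1.03 ± 0.39 (SD, n = 8), and the list median was -0.0022 beside -0.02 over all genes. In the rematched fit none of these 6 kept an adjusted p under 0.05 by limma (from 0.061 for Eaf2 to 0.313 for Pdia6). With median centring, 5 of the 18 genes of endoplasmic reticulum load were called higher and 0 lower by limma, with a list median of 0.39 beside 0.16 over all genes, and Herpud1 was at -0.36 (limma adjusted p = 0.403).

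Signals that support B cells and plasma cells were read from 11 tested cytokine and helper genes, of which 4 were called higher and 7 not called. Icosl, the ligand that engages helper T cells, stood at 1.19 ± 0.55, Il7 at 0.84 ± 0.52 and Tnfsf13b, the survival factor BAFF, at 0.77 ± 0.49 (SD, n = 8). The rematched limma fit kept Icosl and Tnfsf13b (adjusted p = 0.00643 and 0.0132) and not Il7 (0.087). Of 13 tested genes of antibody transport, antibody receptors and homing, 3 were higher, 1 lower and 9 not called. Itgb7, an integrin subunit of mucosal homing, stood at 1.05 ± 1.01, the chemokine receptor gene Cxcr4 at 0.89 ± 0.48 and the Fc receptor gene Fcgr4 at 0.78 ± 0.54 (SD, n = 8). In the rematched limma fit Cxcr4 kept its call, and Itgb7 (adjusted p = 0.0535) and Fcgr4 (0.0848) did not. Pigr, the epithelial receptor that carries J chain bound IgA into milk, ranged from -3.33 to 0.28. It fell by 1.95 ± 1.06 (SD, n = 8; limma adjusted p = 0.00545), while Jchain and the alpha position were the called members with the smallest adjusted p-values.

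The first and swapped arrays differed in size for tumors 1 to 4. The immunoglobulin median was 1.30, 0.88, 2.43 and 0.89 on the first arrays, in order of tumor, and 0.38, 2.05, 1.03 and 2.03 on the swapped arrays with those labels. For tumors 2 and 4 the swapped array was thus the higher, and for tumors 1 and 3 the lower. On the swapped arrays Jchain stood at 1.87, 3.53, 1.97 and 2.90, and the alpha position at 1.57, 2.64, 1.46 and 2.32, all above the pool. Over first arrays alone 18 of the 20 called members kept their call (Jchain 2.95, limma adjusted p = 0.000242), and in the rematched fit 16 of 20 did, beside 3.56% of all genes called higher.

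**Figure D4:**
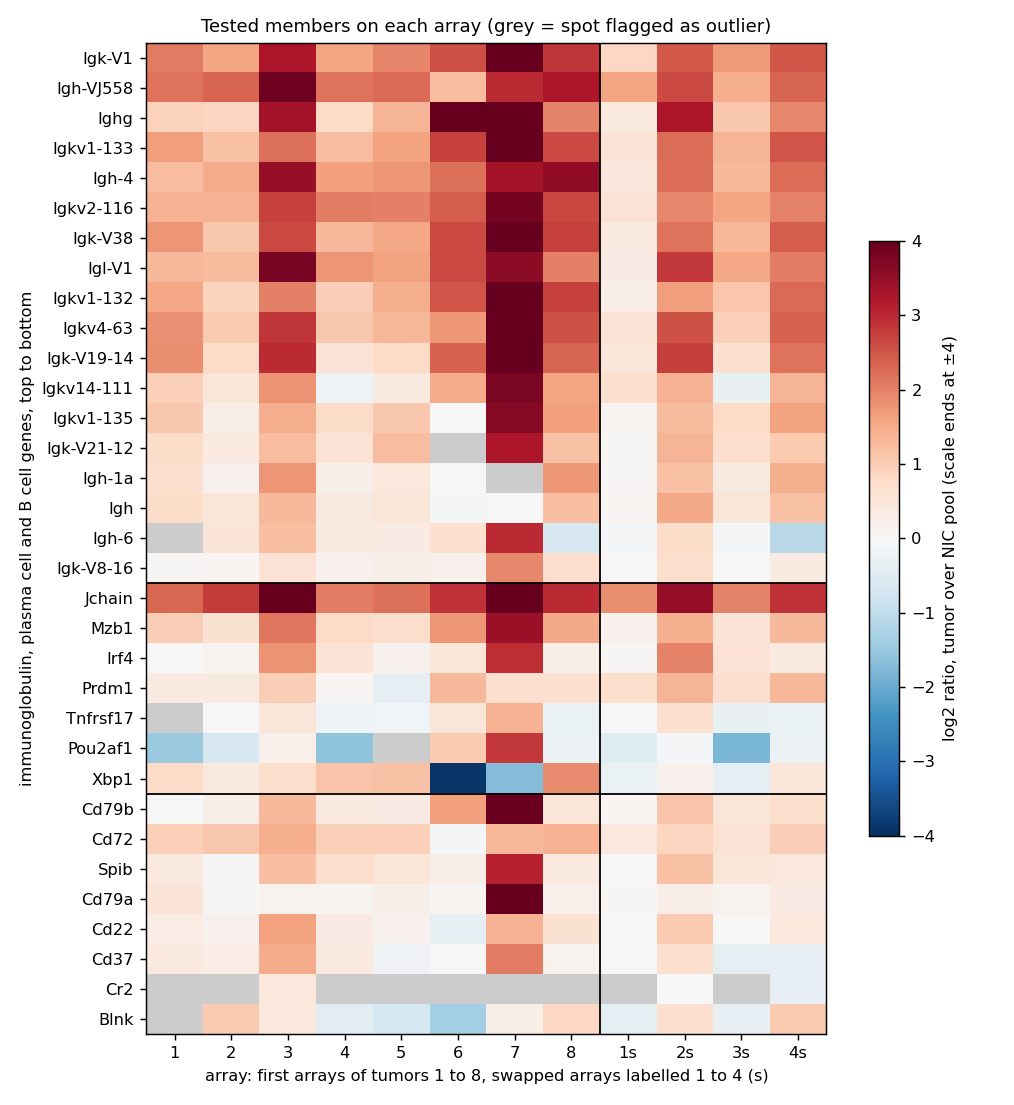
Log2 ratio of tumor over NIC pool for the 33 tested members (rows, in the order of the plot of tumor values) on the 12 arrays (columns): first arrays of tumors 1 to 8, then the swapped arrays labelled 1 to 4, marked s. Red is above and blue below the pool, the colour scale ends at 4 in either direction, and grey marks spots left out for an outlier flag. The rows of Igh-VJ558 and Jchain are red on all 12 arrays, and the immunoglobulin median is 2.05 on the swapped array labelled tumor 2 and 2.43 on the first array of tumor 3.

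Promoters were searched for 2 short motifs in RefSeq windows of GRCm38.p6 around the gene start, on both strands. The octamer ATTTGCAT, bound by the factors that Pou2af1 assists, was in 1.97% of 27025 promoters, and in 1 (Blnk) of 15 members with a window. The XBP1 element TGACGTGG was in 0.714% of promoters and in 1 of the 15 (Pou2af1). The search covered the 19 named genes, of which 4 had no window in the table.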

How the data were processed

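Scans were read with Agilent Feature Extraction 9.5.3.1, per the file headers. The mean foreground and median background intensity of each spot were deposited in both channels. The deposited log10 ratio is red over green of processed intensities, per the file headers, and other deposited flags, of 0 or 1, mark outlier spots, saturated spots and those well above background. The authors' value table is on a log2 scale, turned to tumor over pool, with column medians from -0.0715 to 0.137 and slopes on the scanner ratio of 0.715 to 0.797 in size. Its scaling and centring are not stated in the labels or files used here. It served, like the log10 ratio, as an alternative.

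Here, background was corrected by normexp (offset 50) and loess was run within each array, giving control spots a weight of 0 (limma 3.58.1, R 4.3.3). Outlier spots (0.47% to 13.7% of an array) were left out, and saturated spots (at most 3) kept. Both arrays of a tumor were averaged by label. A probe was kept where at least 4 tumors had an array, 1 or more, with either RNA well above background. Ratios were fitted with lmFit and eBayes against 0, a script tested on simulated data. The 8 tumors limit the precision. Of 41174 probes, 22951 were named by accession, 6648 by symbol and 3091 by older symbol through RefSeq GRCm38.p6, and for 8484 the file's own name was used. Probe positions are those of the files (mm7).

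The members, gene lists and pairs were chosen with earlier results of these data known. Named were all 19 B cell and plasma cell members, the called immunoglobulin genes with the 5 highest and 5 lowest, and, of each other list, called genes with the 3 largest means in either direction. Alternatives were the first arrays alone, 2 dye-term fits, median centring, 2 other sources of ratios, filters, slides and leaving out each tumor.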

Additional observations from a re-analysis of the deposited data

Results flagged for a closer look

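For 15 of the 33 tested members, 1 tumor lay further from the others than Dixon's test at its 95% level allows. For normally spread values this level flags about 1 in 20 groups, and the members are not independent of each other. The share of all genes that the same rule flags is not given here, so the count is not read as particular to the members. In 14 of the 15 the tumor apart was tumor 7, on the high side of the pool. Among immunoglobulin genes these were Igkv1-133 at a log2 ratio of 4.63 (the nearest other tumor was at 2.74), Igk-V19-14 at 4.51 (2.37), Igkv14-111 at 3.76 (1.58), Igkv1-135 at 3.65 (1.65), Igk-V21-12 at 3.24 (1.22, over 7 tumors), the mu heavy chain Igh-6 at 2.98 (0.64) and Igk-V8-16 at 1.94 (0.69). Among plasma cell genes they were Mzb1 at 3.45 (1.78), Irf4 at 2.96 (1.18) and Tnfrsf17 at 1.40 (0.49). Among B cell genes they were Cd79a at 4.02 (0.28), Cd79b at 3.96 (1.66), Spib at 3.08 (0.86) and Cd37 at 2.08 (0.57). For Cd79a the gap covered 0.96 of the whole range of the 8 tumors, the most of the 15. The remaining one was Prdm1, which was low in tumor 5 at -0.36, with the next tumor at 0.52.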

How the results depend on the processing

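All 20 called members kept their call with the Feature Extraction log ratio, the authors' value table, no filter, outlier spots kept, the slide of the first arrays as a block, and the dye term with the tumor block by label. The immunoglobulin median was 2.81 with the Feature Extraction log ratio, against 2.04 in the main values. Among the other settings, the count of members called higher moved to 10 when both RNAs had to be above background on all arrays, where 10 of the 20 were left to test, and to 4 over tumors 5 to 8 alone. Leaving out 1 tumor gave 14 to 21 members higher, the fewest without tumor 4 or 8; 1 member was lower over tumors 1 to 4 alone. Median centring and first arrays alone each kept 18 of the 20. Without tumors 2, 3, 4, 5 and 8 in turn, 15, 15, 14, 16 and 14 of the 20 calls were kept. Over all genes, 1345 higher and 2156 lower became 2361 and 975 with median centring, which moved the median of all genes from -0.02 to 0.16; 716 and 918 with the dye term and best match; and 91 and 138 over tumors 5 to 8. Leaving out 1 tumor gave 653 to 1771 genes higher and 1314 to 2766 lower. Signs turned for 4 members that were never called in the main values. Xbp1 became 0.055 over first arrays, 0.047 with the dye term by label, 0.57 with median centring, 0.38 over tumors 1 to 4, and from -0.42 to 0.41 with 1 tumor left out (0.41 without tumor 6, 0.098 without tumor 7). Pou2af1 became -0.33 by label, -0.77 over tumors 1 to 4, and from -0.38 to 0.26 with 1 tumor left out (-0.38 without tumor 7, -0.081 without tumor 6). Blnk became 0.0053 over first arrays, 0.13 and 0.034 with the dye term by label and by best match, 0.34 with median centring, 0.046 with the log ratio, 0.052 with the value table, 0.20 over tumors 1 to 4, and from -0.15 to 0.17 with 1 tumor left out (above 0 without tumors 1, 5 and 6). Cr2 became -0.060 with the log ratio. The cause was not tested. No paired analysis was possible because there was 1 group of tumors. Signal over background limits 6 members, which were too dim to test.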
